A study of Mus musculus with 42 samples.

Results

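The 37 genes described here encode the steps that carry glucose to pyruvate and lactate, the branch into the mitochondrion and the steps that make glucose. They were taken as a list of named genes, from the glucose carriers Slc2a1, Slc2a2 and Slc2a3 to glucose-6-phosphatase (G6pc), and all 37 were found among the 49585 genes of the count table. By role they fall into 3 glucose carriers, 3 hexokinases, 4 genes of the isomerase and phosphofructokinase steps, 4 bifunctional Pfkfb enzymes, 10 genes of lower glycolysis from aldolase to pyruvate kinase, 4 lactate genes, 4 genes of the pyruvate dehydrogenase step and 5 genes of gluconeogenesis.

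Glycolysis splits glucose into pyruvate, which is either reduced to lactate by lactate dehydrogenase and exported by monocarboxylate carriers or oxidised through pyruvate dehydrogenase, an enzyme that Pdk kinases switch off. Liver runs much of the pathway backwards between meals: pyruvate carboxylase, the phosphoenolpyruvate carboxykinases, fructose-1,6-bisphosphatase and glucose-6-phosphatase bypass the irreversible steps and release glucose to the blood. Many steps are served by isozymes from separate genes, whose use differs between tissues. Thymocytes that proliferate use much glucose, and p53 is known to act on several genes of glucose metabolism.

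RNA sequencing counts were available for 42 libraries from mice aged 4 weeks, on a mixed BALB/c and C57BL6 background, that carried altered Trp53. In AD/- and RP/- mice, called AD and RP here, a mutant allele stood opposite a null allele; the labels do not spell these names out. Het mice (+/-) had a wild-type allele opposite a null allele, and Null mice had no wild-type allele, so no mouse had a full wild-type pair. Irradiated thymus was collected 4 h after exposure from 4 AD, 4 RP, 4 Het and 4 Null mice. Unirradiated (basal) thymus came from 3 AD, 3 Het and 2 Null mice, and liver, intestine and pancreas, all basal, came from 3 AD and 3 Null animals, 5 of which also gave basal thymus. The series set the mutant alleles against the absence of p53 in stressed and resting tissue. AD-727 stands for the AD mouse of that number. Levels are CPM (counts scaled to library size, with TMM factors over all 42 libraries); levels of different genes are compared only as CPM per kilobase of exon. Each log2 fold change is followed by ± and its standard error. A gene was called where edgeR's quasi-likelihood test gave a Benjamini-Hochberg adjusted p under 0.05 over all genes tested, and p-values cover only the spread between these few mice.

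Total counts per library were 26398761 to 33331829 in thymus, 26000528 to 32487187 in liver, 24340398 to 34772519 in intestine and 19861977 to 24815911 in pancreas. Trp53, the targeted gene, stood at 21.0 to 25.9 CPM in AD, 22.2 to 24.3 in RP, 20.4 to 27.0 in Het and 12.7 to 15.6 in Null thymus. It did not separate AD (7.32 to 8.001 CPM) from Null (5.61 to 7.96) in liver, and in pancreas AD (7.36 to 11.2) overlapped Null (10.8 to 12.3), so genotypes were read from the labels. Tissue labels fitted their markers: summed hepatocyte markers reached 206626 to 281344 CPM in liver, acinar markers led in pancreas, gut epithelial markers stood at 14508 to 21874 CPM in intestine and thymocyte markers at 4982 to 7802 CPM in thymus. The exceptions touch results given later. Acinar markers summed to 103548 CPM in the AD-702 and 56249 CPM in the Null-923 intestine (701.8 to 12008 in the other 4) and to 1956 CPM in the AD-702 liver, and hepatocyte markers to 217 CPM in the irradiated AD-727 thymus. In such bulk samples, fewer cells of a type and less RNA per cell cannot be told apart.

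These genes differed widely between tissues. Liver held the gluconeogenic end of the pathway: G6pc, which releases free glucose, was 9.06 ± 0.22 log2 units higher in liver than in the mean of the other basal tissues, fructose-1,6-bisphosphatase Fbp1 8.70 ± 0.14 higher and cytosolic phosphoenolpyruvate carboxykinase Pck1 7.64 ± 0.48 higher. Intestine was also high in Slc2a2, G6pc, Fbp1 and Pck1, and in the glycolytic isozymes Pfkfb4 and Pfkp. Pancreas was high in mitochondrial Pck2 and low in most of the list, and thymus was high in Ldhb, Slc2a3 and Hk1. Of 37 members, 21 were called higher and 13 lower in liver, beside 30.1% and 40.8% of all genes. In intestine 28 were called higher and 7 lower (35.4% and 27.6% of all genes), in pancreas 5 and 26 (30.7% and 31.1%) and in thymus 9 and 23 (43.5% and 30.7%). Calls as such were the rule in these contrasts. The median member stood 0.73 higher in liver (all genes -0.42), 0.92 higher in intestine (all genes 0.03), -1.27 in pancreas (-0.13) and -0.50 in thymus (0.22), on the log2 scale. The 4 contrasts share their libraries. Among the other members called higher by at least 2 log2 units in liver were Slc2a2 (6.01), Pcx (4.04) and Aldoc (2.74), and the lowest after Pdk3 were Pfkp (-3.43), Pkm (-3.32), Pfkfb4 (-3.12) and Slc16a3 (-2.81). In intestine Slc2a2 (6.12) and G6pc (5.25) led, in pancreas Pck1 (-8.38), G6pc (-6.22) and Fbp1 (-4.98) were lowest, and in thymus Slc2a2 (-10.12), G6pc (-8.10), Pklr (-7.03) and Fbp1 (-6.98).

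Glucose entry was split between carriers. Slc2a2, the low-affinity carrier (GLUT2) of hepatocytes and enterocytes, ran from 406 to 757 CPM in liver. Its lowest, median and highest values were 373, 622 and 795 CPM in intestine, 6.45, 8.48 and 9.45 CPM in pancreas, and 0.0468, 0.0902 and 0.224 CPM in thymus. The ranges of liver and intestine overlapped, and both stood far above pancreas and thymus. Slc2a3, the high-affinity GLUT3, was 3.44 ± 0.17 log2 units higher in thymus than elsewhere (adjusted p = 3.85e-15 by edgeR). Per kilobase, Slc2a2 made up 96.5% of the 3 carriers in liver and 96.8% in intestine, against 0.343% in thymus, where Slc2a3 held 51.7% and Slc2a1 48%. Slc2a1, the widely expressed GLUT1, held 65% in pancreas, where islet beta cells are the known site of Slc2a2 in mice.

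The leading member of the hexokinase and phosphofructokinase genes differed between tissues. Of the sum of Hk1, Hk2 and Hk3, Hk1 made up 71.7% in thymus and Hk2 77.7% in pancreas and 56.4% in intestine; in liver all 3 were low, at 2.42 to 11.4 CPM. Hk1 was called higher in thymus (2.54 ± 0.08) and Hk2 in pancreas (1.96 ± 0.17). Pfkp, the platelet-type phosphofructokinase, reached 353 to 516.5 CPM in intestine, against 6.92 to 10.6 in liver, 12.2 to 26.1 in pancreas and 101 to 116 in thymus, and it held 65.4% of its family in intestine. Pfkl led in liver with 57.6%. The Pfkfb enzymes, which make and remove the phosphofructokinase activator fructose 2,6-bisphosphate, each led in another tissue: Pfkfb1 held 63.9% in liver, Pfkfb4 75.9% in intestine, Pfkfb3 62.6% in thymus and Pfkfb2 44.7% in pancreas. Pfkfb4 was 4.84 ± 0.09 log2 units higher in intestine and Pfkfb1 5.21 ± 0.14 higher in liver than in the other tissues.

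**Figure D1:**
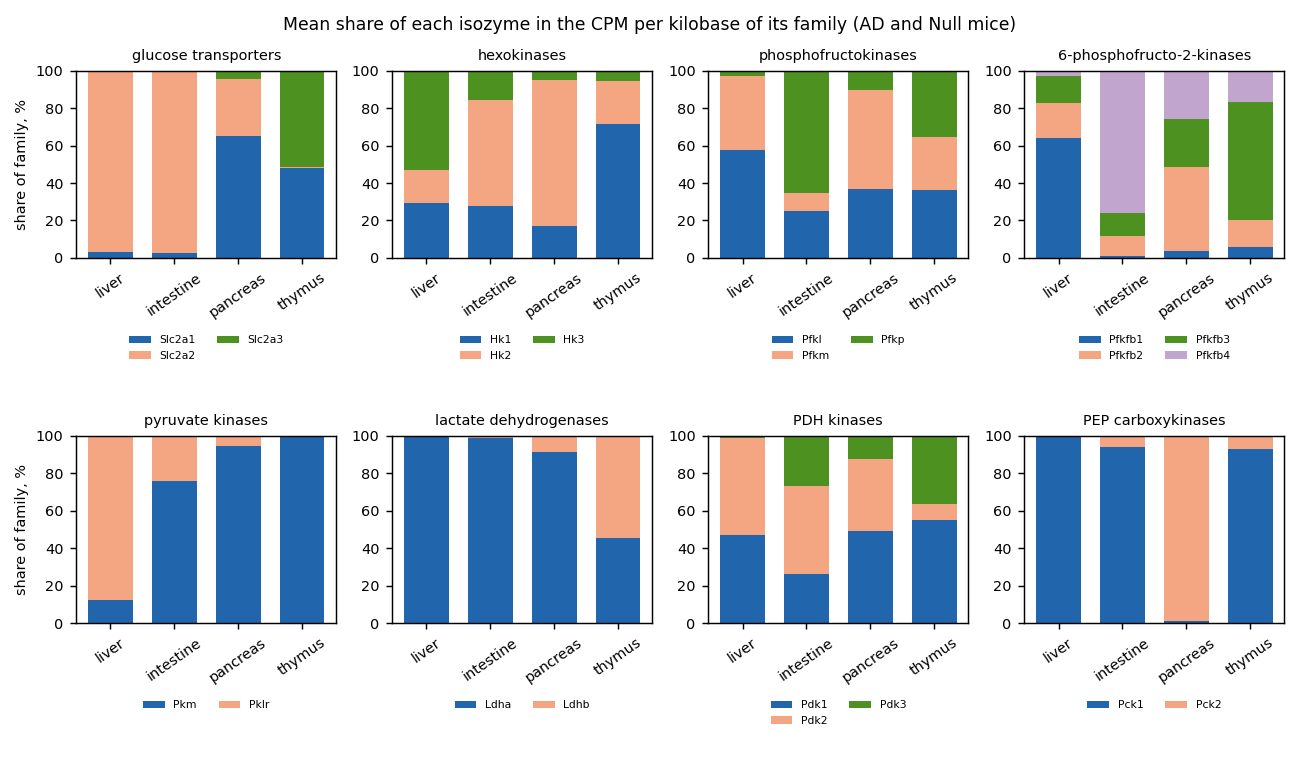
Each bar splits the summed CPM per kilobase of exon of the members named in its legend, which need not be the whole family (y axis, mean share in percent over 6 liver, 6 intestine, 6 pancreas and 5 thymus libraries of AD and Null mice). Slc2a2 fills 96.5% of the liver bar and 0.343% of the thymus bar, and Pfkfb1, Pfkfb4 and Pfkfb3 lead in liver, intestine and thymus. Per kilobase, but not in CPM, Ldhb exceeds Ldha in thymus alone of the 4 tissues.

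Several genes of lower glycolysis (Tpi1, Gapdh, Pgk1, Pgam1 and Eno1) were higher in intestine and liver than in pancreas and thymus. The triose isomerase Tpi1 stood at 639 to 900 CPM in intestine and 525 to 640 CPM in liver, against 73.8 to 93.4 in pancreas and 79.0 to 101 in thymus. Of the pyruvate kinases, Pklr, the liver and red cell form, was called higher in both liver (4.47 ± 0.10) and intestine (4.81 ± 0.10), and Pkm was lower in liver (-3.32 ± 0.10). Intestine carried both, with Pkm at 1057 to 1390 CPM and Pklr at 219 to 275 CPM, whereas Pklr reached only 0.388 to 0.609 CPM in thymus. Aldolase A made up 99.3% of Aldoa and Aldoc in thymus.

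At the lactate step, Ldhb, whose subunit favours the conversion of lactate to pyruvate, had a lowest, median and highest value of 126, 128 and 167 CPM in thymus, against 1.70, 3.58 and 3.96 CPM in liver. It was 4.94 ± 0.10 log2 units higher in thymus than elsewhere. Per kilobase of exon it made up 54.6% of summed Ldha and Ldhb there, against 0.634% in liver, 0.916% in intestine and 8.66% in pancreas. The order of the 2 genes in thymus rests on exon length, taken over all annotated exons (Ldha 3310 bases, Ldhb 1570). In CPM Ldha was the higher in thymus, at 214 to 277, against 126 to 167 for Ldhb. Slc16a3, the lactate exporter MCT4, was 4.42 ± 0.11 higher in intestine. Of the Pdk kinases, Pdk3 was 4.18 log2 units below the other tissues in liver (-4.18 ± 0.20) and Pdk2 3.18 units below them in thymus (-3.18 ± 0.11).

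The genes of glucose production separated the tissues by wide margins. Pck1 had a lowest, median and highest value of 1997, 5620 and 7903 CPM in liver, 45.4, 431 and 802 in intestine, 0.134, 0.600 and 4.83 in pancreas, and 8.49, 64.0 and 69.9 in thymus. The lowest value in intestine came from Null-923, which was also the lowest in liver and in thymus. In thymus the low Pck1 and Pcx values lay in libraries with low summed adipocyte markers (217 and 224 CPM in Null-923 and Null-859, 424 to 503 CPM in the 3 AD libraries), and all 10 of those markers were detected in each group; their part in the level was not tested. Mitochondrial Pck2 reversed the pattern, at 167 to 262 CPM in pancreas, against 4.67 to 11.4 CPM in liver, 22.1 to 40.4 CPM in intestine and 3.72 to 6.09 CPM in thymus. It was 4.64 ± 0.13 log2 units higher in pancreas than elsewhere and made up 98.8% of the 2 carboxykinases there, against 0.0613% in liver. The highest intestinal Pck2 values, 40.4 and 31.3 CPM, were those of AD-702 and Null-923, the 2 libraries with high acinar markers, and the highest liver value, 11.4 CPM, was that of AD-702; the part of acinar RNA in these values was not tested.

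**Figure D2:**
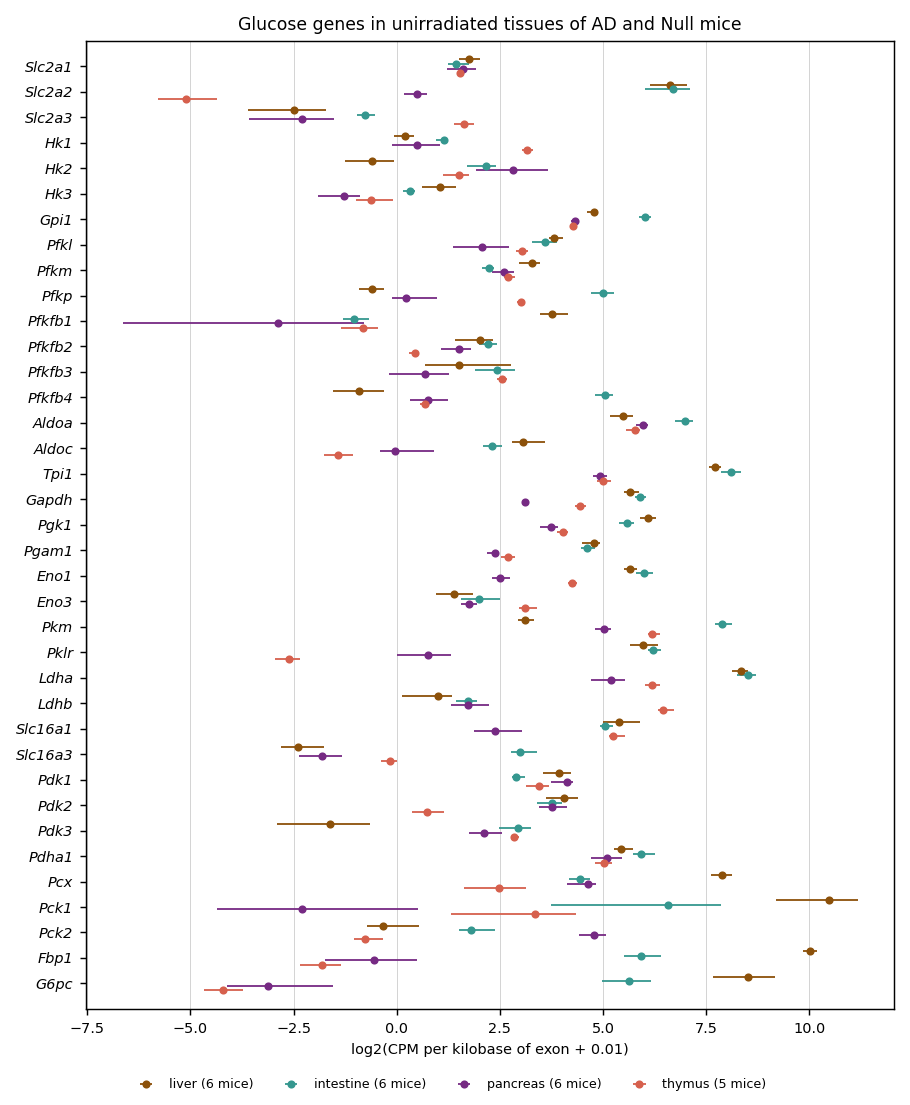
The 37 members run down the page in pathway order, and the x axis gives log2(CPM per kilobase of exon + 0.01) in basal tissues of AD and Null mice; points are means over 6 liver, 6 intestine, 6 pancreas and 5 thymus libraries and bars run from the lowest to the highest library. Pck1, Fbp1 and G6pc reach their highest values in liver, and Pck1 has the widest spread within intestine.

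In irradiated thymus, a wild-type Trp53 allele went with lower transcripts of lower glycolysis and lactate handling. Compared with Null thymus, Het thymus had less Tpi1 (-0.94 ± 0.12), less of the lactate and pyruvate carrier Slc16a1 (MCT1, -0.76 ± 0.08), less of the ATP-forming kinase Pgk1 (-0.69 ± 0.13) and less Ldha (-0.63 ± 0.11), the lactate-forming subunit. Eno1 (-0.58 ± 0.13) and Pgam1 (-0.55 ± 0.11) fell as well. Of 36 members tested, 3 rose and 12 fell, beside 9.79% and 9.38% of all genes, and the median member change was -0.23 beside -0.01 for all genes. G6pc was left untested, at 0 to 0.327 CPM over the 16 libraries.

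Triose phosphate isomerase, Tpi1, had 53.7, 41.25, 49.3 and 51.8 CPM in the Het mice, against 79.2, 119, 87.3 and 84.6 CPM in the Null mice. For Slc16a1 the values were 114, 88.3, 102 and 106 CPM in Het and 168, 185, 168 and 166 CPM in Null. No Het mouse reached the lowest Null mouse for either gene, and both calls held in all 21 alternative analyses (edgeR adjusted p = 3.61e-05 and 2.51e-06). Pgk1 stood at 25.5, 23.5, 25.8 and 20.25 CPM in Het and at 32.7, 52.97, 32.55 and 32.9 CPM in Null (adjusted p = 0.00149 by edgeR). Ldha stood at 175, 148, 167 and 132 CPM in Het and at 205, 300.5, 225 and 218 CPM in Null (edgeR adjusted p = 0.000486). Here too the groups did not overlap, and Null-604 was the highest Null library for both. Over 21 alternatives the log2 change ran from -0.76 to -0.48 for Pgk1 and from -0.69 to -0.49 for Ldha, and neither lost its call.

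Enolase 1 had 75.3, 61.4, 74.9 and 50.3 CPM in Het and 75.8, 121.5, 96.1 and 93.1 CPM in Null (edgeR adjusted p = 0.00363), with the lowest Null mouse just above the highest Het mouse. Pgam1, phosphoglycerate mutase, had 9.82, 8.01, 8.34 and 7.33 CPM in Het, against 9.89, 13.8, 12.4 and 12.25 CPM in Null, again with little space between the groups (edgeR adjusted p = 0.00195). Smaller falls were called for Eno3 (-0.39), Pkm (-0.36), Gapdh (-0.31), Pfkp (-0.29), Pdha1 (-0.31), the catalytic subunit of pyruvate dehydrogenase, and its kinase Pdk1 (-0.42). The calls of Pdk1, Pkm and Pdha1 were lost without Het-595 and without Null-604, and over the alternatives Pdk1 lay between -0.51 and -0.22. Eno3 lies 1.07 Mb from Trp53 on chromosome 11, so that strain alleles linked to Trp53 and genotype cannot be told apart for it. Aldoc (8.73 Mb), Pdk2 (25.43 Mb), G6pc (31.78 Mb) and Slc16a3 (51.36 Mb) lie further from Trp53 on that chromosome, and linkage was not tested for them.

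The members that rose in Het thymus were few. Pdk2, another kinase that inhibits pyruvate dehydrogenase, had 8.88, 7.34, 6.90 and 9.79 CPM in Het and 4.77, 3.77, 6.82 and 5.03 CPM in Null, a change of 0.67 ± 0.17 (edgeR adjusted p = 0.00817). Ldhb had 202, 181, 187 and 142 CPM in Het and 128, 116.5, 134 and 122 CPM in Null, a change of 0.49 ± 0.10 (edgeR adjusted p = 0.00164). Pfkfb3 rose by 0.25 ± 0.06. None of these 3 overlapped between the groups, and the share of all genes without overlap was not counted. Calls higher were about as common among all genes (9.79%) as among the members.

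By role, 7 of 10 genes of lower glycolysis fell and 0 rose, and at the lactate step Ldha and Slc16a1 fell while Ldhb rose and Slc16a3 was at 0.10 ± 0.17. None of the 3 glucose carriers and none of the 3 hexokinases was called, with Slc2a1 at 0.30 ± 0.10, Hk2 at -0.43 ± 0.19 and Hk3, a myeloid hexokinase, at 0.66 ± 0.26. The 4 gluconeogenic genes tested lay between -0.46 and 0.30 and were not called. In Het thymus the 10 thymic epithelial markers summed to 1155 to 1426 CPM, against 805 to 888 CPM in Null, the 10 macrophage markers to 350 to 705 CPM, against 387 to 473 CPM, and the 10 thymocyte markers to 5801 to 7802 CPM, against 4982 to 6205 CPM. The lowest macrophage sum in Het was that of Het-631, and the other Het mice had 574 to 705 CPM. No marker of these lists was at 0 in either group, and the part of cell composition in the member changes was not tested. Together the 37 members took 0.256% of all counts in Het (SD 0.0131, n = 4), against 0.325% in Null (SD 0.0288, n = 4).

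**Figure D3:**
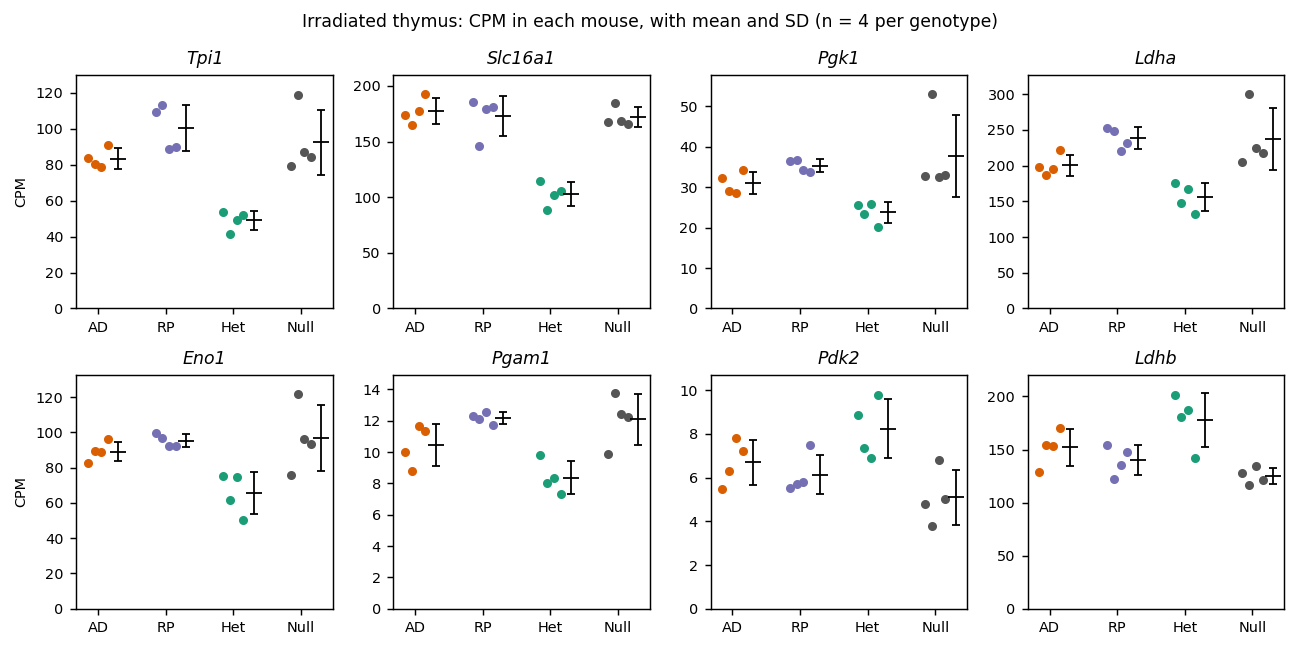
Each panel gives the CPM of a member in irradiated thymus (y axis from 0), with a point per mouse, the mean and SD beside it, and genotypes AD, RP, Het and Null from left to right (4 mice each). Het lies below the other genotypes for Tpi1, Slc16a1, Pgk1 and Ldha and highest on average for Pdk2 and Ldhb; Null-604 is the high Null point for Tpi1, Pgk1, Ldha and Eno1.

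The promoters of the genes that fell furthest, and of Pfkfb3, which rose, are shown because genes of this pathway are known targets of hypoxia-inducible and MYC family factors, which read ACGTG and CACGTG. Each window runs from 250 bases before to 50 bases after a RefSeq start site (GRCm38.p6), 5′ to 3′ on the gene's strand: Tpi1 at chr6:124814109-124814408 (minus strand), Slc16a1 at chr3:104638414-104638713 (plus), Pgk1 at chrX:106186850-106187149 (plus), Ldha at chr7:46845554-46845853 (plus) and Pfkfb3 at chr2:11553880-11554179 (minus). Capitals mark ACGTG, its reverse complement CACGT, and the cAMP response element TGACGTCA; overlapping matches run together.
Tpi1: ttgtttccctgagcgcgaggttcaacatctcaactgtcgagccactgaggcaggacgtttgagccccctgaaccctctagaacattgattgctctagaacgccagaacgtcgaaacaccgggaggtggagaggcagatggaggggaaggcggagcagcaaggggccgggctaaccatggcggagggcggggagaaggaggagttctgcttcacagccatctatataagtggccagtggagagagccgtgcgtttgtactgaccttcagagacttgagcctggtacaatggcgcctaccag
Slc16a1: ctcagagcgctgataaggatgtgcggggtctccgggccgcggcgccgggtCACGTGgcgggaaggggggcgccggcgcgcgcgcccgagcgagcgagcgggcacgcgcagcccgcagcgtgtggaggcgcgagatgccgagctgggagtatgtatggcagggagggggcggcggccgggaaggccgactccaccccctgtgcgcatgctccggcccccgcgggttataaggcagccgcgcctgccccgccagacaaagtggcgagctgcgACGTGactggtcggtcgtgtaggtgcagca
Pgk1: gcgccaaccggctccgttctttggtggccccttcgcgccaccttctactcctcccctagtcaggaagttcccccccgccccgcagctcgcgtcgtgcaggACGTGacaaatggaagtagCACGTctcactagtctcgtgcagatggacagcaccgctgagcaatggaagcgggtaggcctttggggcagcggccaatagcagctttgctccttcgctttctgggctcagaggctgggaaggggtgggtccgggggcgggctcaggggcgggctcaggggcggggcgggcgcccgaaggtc
Ldha: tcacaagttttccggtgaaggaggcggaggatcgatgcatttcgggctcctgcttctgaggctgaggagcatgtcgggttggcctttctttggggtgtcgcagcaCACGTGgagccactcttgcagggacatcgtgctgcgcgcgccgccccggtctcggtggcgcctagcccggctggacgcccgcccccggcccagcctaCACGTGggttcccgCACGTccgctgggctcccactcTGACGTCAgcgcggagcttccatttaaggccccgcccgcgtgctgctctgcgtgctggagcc
Pfkfb3: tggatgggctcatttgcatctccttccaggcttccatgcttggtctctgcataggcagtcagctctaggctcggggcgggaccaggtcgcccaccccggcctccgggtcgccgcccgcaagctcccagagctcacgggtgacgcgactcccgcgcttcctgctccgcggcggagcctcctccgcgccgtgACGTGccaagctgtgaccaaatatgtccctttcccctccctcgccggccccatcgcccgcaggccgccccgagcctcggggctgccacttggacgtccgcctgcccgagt
Ldha (window 4329 bases from the 5′ end of its GENCODE M21 gene) held 5 matches to ACGTG counted on both strands, with 2 palindromes CACGTG that count on each strand, and the only TGACGTCA among the members. Slc16a1 held 3 matches, Pgk1 2 and Pfkfb3 1, and these letters were not in the Tpi1 window, the gene with the largest fall. Pdk2 and Ldhb, which rose more than Pfkfb3 and are not shown, held 2 and 0 matches. Windows were matched for 36 of 37 members (not Slc2a3). ACGTG was in 15 of them (41.7%), beside 19.6% of all 32851 mouse windows, CACGTG in 5 (13.9%, beside 7.15%), and a p53 half-site in 3 (8.33%, beside 8.36%). Each member was counted by the 1 window nearest its gene's 5′ end, but every window of every gene entered the comparison. These shares are therefore not like for like and show no enrichment. The windows shown were 57.3 to 73.7% G and C, and the share over all windows was not measured. These are letter matches, and no binding was measured.

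After irradiation no member passed the test between either mutant and Null thymus. AD against Null and RP against Null gave 0 called members of 36 by edgeR (0.027% and 0.0315% of all genes called), and DESeq2 called 0 in each. At an unadjusted p under 0.05 were 5 and 1 members, beside 1774 and 1151 of all 22206 genes. Median member changes were -0.05 and 0.00. Tpi1 had 83.6, 80.4, 78.5 and 91.3 CPM in AD and 109, 113, 88.6 and 90.1 CPM in RP, within the Null range of 79.2 to 119 CPM but for AD-726, just under it. Slc16a1 had 174, 165, 178 and 193 CPM in AD and 186, 146, 180 and 181 CPM in RP, around the 166 to 185 CPM of Null. For Tpi1 the log2 change was -0.15 ± 0.12 in AD against Null and 0.09 ± 0.12 in RP against Null, and for Slc16a1 it was 0.04 ± 0.08 and -0.01 ± 0.08. AD against RP gave 0 called members by edgeR (0% of all genes called), 3 at an unadjusted p under 0.05 (1525 of all 22206 genes) and 0 by DESeq2. Member changes ran from -0.57 (Pklr) to 0.60 (Slc2a2), both genes under 1 CPM here. Slc2a2 was 2.46 ± 0.87 higher in AD than in Null without a call, and its highest value, 0.796 CPM, was that of AD-727, where hepatocyte markers summed to 217 CPM (9.43 to 12.4 in the other AD libraries).

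Against Het thymus, Tpi1, Gapdh, Eno1, Pkm, Ldha, Slc16a1 and Pfkp were called higher in both mutants and Pfkfb3 was called lower in both. Of the 10 genes of lower glycolysis, 5 were higher and 0 lower in AD, and 6 were higher and 0 lower in RP. Of the 4 lactate genes, 2 were higher and 0 lower in AD, and 2 were higher and 1 lower in RP, where Ldhb fell by 0.35 on the log2 scale (-0.35 ± 0.10); its call was lost without RP-653 or RP-654. In AD against Het, 8 members were called higher and 2 lower (5.69% and 8.27% of all genes), led by Slc16a1 (0.81 ± 0.08) and Tpi1 (0.79 ± 0.12). In RP against Het, 11 were called higher and 2 lower (8.53% and 10.2% of all genes), led by Tpi1 (1.03 ± 0.12), Slc16a1 (0.75 ± 0.08), Ldha (0.61 ± 0.11), Pgk1 (0.57 ± 0.13), Eno1 (0.54 ± 0.13) and Pgam1 (0.54 ± 0.11). Ldha was 187 to 222 CPM in AD and 220 to 253 CPM in RP, against 132 to 175 CPM in Het, so neither mutant overlapped Het. These contrasts use the same Het mice as the Het against Null contrast and are not independent of it. The markers of other cells moved in these contrasts too. Thymic epithelial markers summed to 796 to 883 CPM in AD and 806 to 958 CPM in RP, against 1155 to 1426 CPM in Het, with 6 of 10 called lower in AD and 5 in RP. Macrophage markers summed to 388 to 440 CPM in AD and 402 to 447 CPM in RP, against 350 to 705 CPM in Het, again with 6 of 10 called lower in AD and 5 in RP. Of 9 skeletal muscle markers tested, 3 were lower in AD and 2 in RP. No thymic epithelial, macrophage or skeletal muscle marker was at 0 in these groups, and the part of cell composition was not tested. Hk3 was lower in AD (1.28 to 2.597 CPM) than in Het (2.21 to 5.83 CPM), at -0.97 ± 0.26 (edgeR adjusted p = 0.0187), and the summed neutrophil markers ranged from 26.5 to 385 CPM in Het with the lowest and the highest Hk3 in the same 2 libraries, Het-631 and Het-603; their part and that of the macrophage markers in the Hk3 difference was not tested. The Hk3 call was lost without Het-603 (-0.69, edgeR adjusted p = 0.0791), without AD-630 (-0.82, 0.0686) and with only the compared groups (-0.98, 0.0596). Of the members called higher in AD, Pkm lost its call in 15 and Eno3 in 11 of 21 alternatives. Called members in AD against Het dropped to 6 without Het-595, AD-630 or AD-727.

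In irradiated thymus the balance of the 2 lactate dehydrogenase genes set Het apart from every other genotype and AD apart from RP and Null. The ratio of Ldha to Ldhb per kilobase was 0.725, 0.572, 0.6045 and 0.617 in AD, 0.777, 0.965, 0.772 and 0.740 in RP, 0.412, 0.387, 0.422 and 0.439 in Het, and 0.759, 1.22, 0.796 and 0.850 in Null. Every Het mouse lay below every AD mouse, and every AD mouse below every RP and every Null mouse, while RP and Null overlapped. The log2 ratio was 1.10 lower in Het than in Null (-1.10), 0.50 lower in AD than in Null (-0.50) and 0.37 lower in AD than in RP (-0.37), each with p = 0.0286 in an exact two-sided permutation test, the smallest p that 4 against 4 mice allow, and 0.0333 after Benjamini-Hochberg adjustment over 7 comparisons. In RP against Null it was -0.14 (exact permutation p = 0.514), and 0.01 without Null-604. The ratio does not depend on library scaling, and it was chosen after the values of both genes had been seen, which the adjustment does not cover. In Het against Null its p was fixed beforehand, because Ldha and Ldhb each already separated the groups in opposite directions. Between AD and RP the gap was 0.725 to 0.740, and neither gene was called in AD against RP or in AD against Null. In basal thymus the ratio was 0.885, 0.672 and 0.731 in AD, 0.957, 0.783 and 0.930 in Het, and 0.883 and 1.025 in Null. These basal ranges overlapped, and the ratio was not tested between basal genotypes. Whether the gap between AD and Null came with irradiation was therefore not tested.

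Set against basal thymus, irradiated thymus of Het mice, the same libraries as in the contrasts above, also had less of several lower glycolysis and lactate transcripts. Tpi1 fell by 0.91 on the log2 scale (-0.91 ± 0.12), Slc16a1 by 0.72 (-0.72 ± 0.10), Ldha by 0.69 (-0.69 ± 0.11), Eno1 and Pgk1 by 0.64 each and Eno3 by 0.59. The rises were Pdk2 (0.53 ± 0.17), mitochondrial Pck2 (0.44 ± 0.14), Ldhb (0.40 ± 0.11) and Pfkfb2 (0.29 ± 0.10), and all 4 lost their call without the basal Het-697 library (edgeR adjusted p = 0.183, 0.0801, 0.0809 and 0.133 in that order). In all, 4 of 37 members rose and 13 fell (8.74% and 8.09% of all genes), with 12 to 19 called when a library was left out. Thymic epithelial markers summed to 1155 to 1426 CPM in irradiated Het thymus, against 922 to 1007 CPM in basal Het thymus, with 4 of 10 called higher. Macrophage markers summed to 350 to 705 CPM, against 441 to 500 CPM, with 3 of 10 called higher, and skeletal muscle markers to 25.1 to 52.4 CPM, against 28.2 to 399 CPM, with 8 of 10 called lower; none of these markers was at 0, and their part was not tested. In AD thymus 0 members were called by edgeR (0.546% of all genes called), 7 were at an unadjusted p under 0.05 (2880 of all 23605 genes) and DESeq2 called 0. In Null thymus 0 were called (0.131%), 3 were at an unadjusted p under 0.05 (1717 of all 23605 genes) and DESeq2 called 0, in a comparison with 2 basal mice.

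Irradiated and basal thymus came from different mice, so no change within a mouse was measured. By library, Tpi1 had 53.7, 41.25, 49.3 and 51.8 CPM in irradiated Het thymus, against 91.1, 91.9 and 90.0 CPM in basal Het thymus. In AD mice it had 78.5 to 91.3 CPM after irradiation, against 79.0 to 101 CPM in basal thymus. The Het groups did not overlap, and the AD groups did. Slc16a1 had 88.3 to 114 CPM in irradiated Het thymus, against 145 to 182 CPM in basal Het thymus, and 165 to 193 CPM, against 156 to 203.5 CPM, in AD thymus. The ratio of Ldha to Ldhb averaged 0.415 in irradiated Het thymus (SD 0.0216, n = 4), against 0.89 in basal Het thymus (SD 0.0935, n = 3). The exact two-sided permutation p was 0.0286, the smallest possible. Ldha alone already separated these groups (132 to 175 CPM, against 245 to 252 CPM), and the ratio was chosen after both genes had been seen. This p is therefore no separate support.

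The difference between genotypes was tested directly as an interaction. The irradiation response of Het minus that of AD was called higher for 1 member and lower for 5 (2.94% and 1.04% of all genes): Tpi1 (-0.85 ± 0.17), Slc16a1 (-0.76 ± 0.14), Eno3 (-0.67 ± 0.19), Gapdh (-0.37 ± 0.10), Pfkp (-0.28 ± 0.07) and Pfkfb3 (0.32 ± 0.09). Het minus Null was called higher for 0 members and lower for 4 (2.37% and 1.07% of all genes): Tpi1 (-0.98 ± 0.19), Slc16a1 (-0.82 ± 0.15), Ldha (-0.62 ± 0.16) and Pdha1 (-0.62 ± 0.16). AD minus Null gave 0 calls by edgeR (0% of all genes), 5 members at an unadjusted p under 0.05 (972 of all 23605 genes) and 0 calls by DESeq2. Tpi1 and Slc16a1 kept both calls in all 28 alternatives. Beside them, 4 of 10 thymic epithelial markers were called higher in each contrast, and macrophage markers were called higher for 3 of 10 in Het minus AD and 1 of 10 in Het minus Null; their part was not tested. The other calls were less stable, with Eno3 losing its call in 21 and Pfkfb3 in 18 of the 28 for Het minus AD: the count for Het minus AD fell to 2 without Het-595, Het-697, AD-700, AD-701 or AD-727 and to 3 without AD-630, and that for Het minus Null fell to 2 without Het-595, either of 2 basal Het mice (Het-855, Het-703) or either basal Null mouse, and reached 7 without Null-593. Eno3 stood at 24.3 CPM in the basal Het-697 thymus, against 13.4 and 14.98 CPM in the other basal Het mice; skeletal muscle markers, all 10 of them detected, summed to 399 CPM there and to 28.2 and 48.4 CPM in those mice. Without Het-697 the change of Eno3 in Het was -0.29 and was not called; the part of muscle RNA was not tested.

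**Figure D4:**
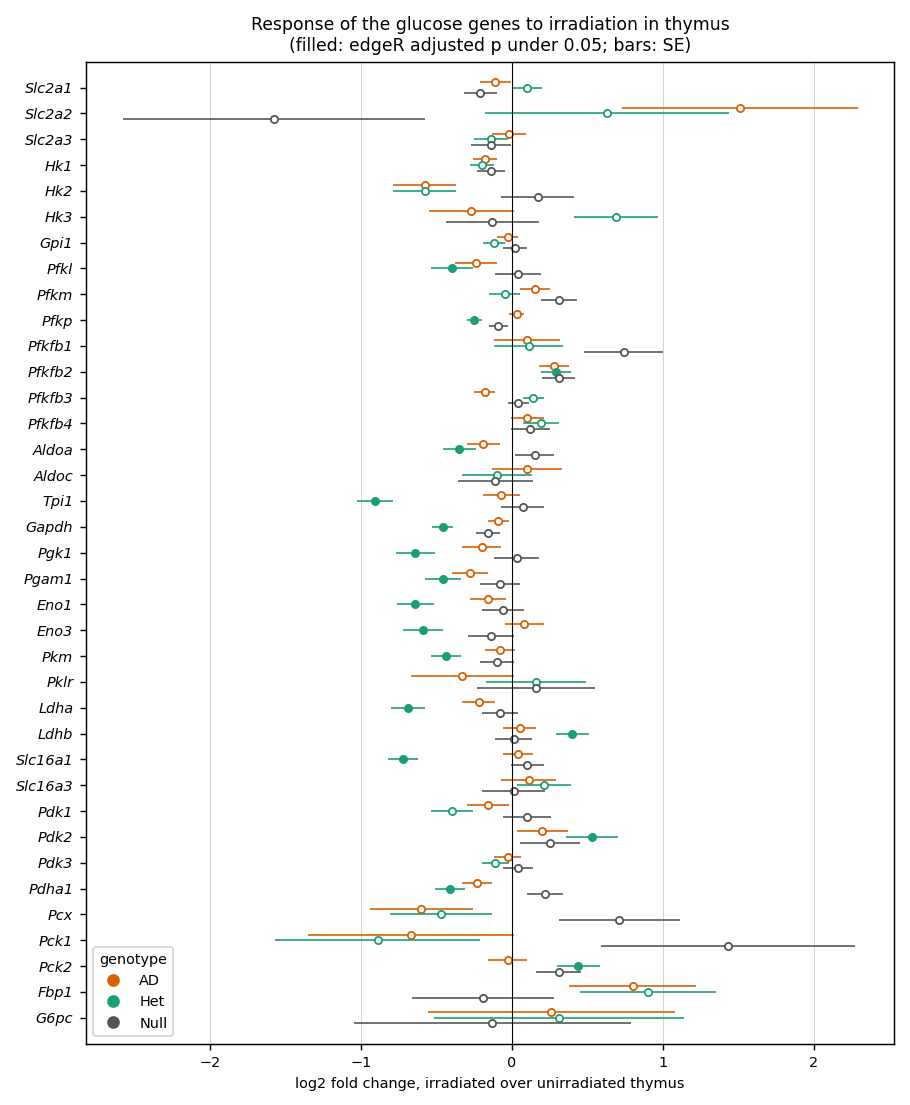
Log2 fold change of irradiated over basal thymus (x axis) for each member, in pathway order, in AD, Het and Null mice; bars are standard errors and filled points have an edgeR adjusted p under 0.05. Filled points occur in Het alone, with Tpi1 at -0.91 and Slc16a1 at -0.72, and the wide bars belong to genes of very low counts (Slc2a2, G6pc) or uneven between mice (Pck1, Pcx).

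Other genes of the pathway and its regulators were read from lists written beside the members. Of 29 other pathway genes tested in irradiated Het against Null thymus, 1 rose and 5 fell; Slc2a9, a urate and hexose carrier, rose by 1.64 ± 0.07, and the pyruvate dehydrogenase phosphatase Pdp2 (-0.36) and the glucose-6-phosphate carrier Slc37a4 (-0.30) were among those that fell. Of 17 regulators, 4 rose and 2 fell, with Foxo3, a transcription factor of the fasting response, called higher (adjusted p = 3.26e-09 by edgeR), and the glucose-uptake inhibitors Txnip at 0.75 ± 0.08 and Arrdc4 at 0.52 ± 0.12. Of 17 hypoxia response genes, 4 rose and 2 fell, and Adm (2.29 ± 0.16) led the rises. These counts stand beside 9.79% of all genes called higher and 9.38% called lower. The list medians were -0.09, 0.07 and 0.03, beside -0.01 for all genes. In the Het minus AD response, Slc2a9, Foxo3 (0.95), Txnip (0.58) and Adm (2.39) were called.

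Without irradiation no member passed the test between genotypes in thymus. By edgeR 0 of 35 members were called in AD against Null and in Het against Null (0.0676% of all genes called in each), and 0 in AD against Het (0%). At an unadjusted p under 0.05 were 5, 4 and 0 members in that order, beside 1704, 1591 and 775 of all 22173 genes. DESeq2 called 0 in all. Slc2a2 and G6pc were too low to test. Tpi1 had 83.6, 79.0 and 101 CPM in AD, 91.1, 91.9 and 90.0 CPM in Het and 83.4 and 97.1 CPM in Null. The largest differences were those of Pck1 and Pcx, 2.23 ± 0.90 and 1.34 ± 0.47 in AD against Null, which moved with the adipocyte markers given above. Without Het-697, 1 member was called in AD against Null and 2 in Het against Null.

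In basal liver, AD mice had more of the hepatic glucose carrier Slc2a2 than Null mice. It had 688, 702.2 and 757 CPM in AD, against 450, 520 and 406 CPM in Null, with no overlap. Its log2 change was 0.69 ± 0.11 (1.62-fold, edgeR adjusted p = 0.0342), and it was the only call: 1 of 37 members was higher and 0 lower, beside 0.152% and 0.114% of all genes. The call was lost without AD-700, AD-701, AD-702, Null-923 or Null-1087, with log2 changes of 0.62 to 0.79 over all alternatives. Summed hepatocyte markers were 206626 to 242075 CPM in AD livers, against 240564 to 281344 CPM in Null livers, and their part was not tested. Counts of called members were 5 without the filter, 4 by DESeq2 and 3 with Xist level as a covariate. The share of all genes called under these settings is not given beside them, so the higher counts are not read as particular to the members.

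Around that call, the 5 gluconeogenic genes lay between 0.12 (Fbp1) and 0.90 (Pck1), and edgeR called none with the main settings. Pck2 (0.50 ± 0.32) had 5.41, 5.46 and 11.35 CPM in AD, against 4.67, 5.73 and 5.89 CPM in Null, and its high value came from AD-702, the liver whose acinar markers summed to 1956 CPM (43.1 to 113 in the other livers); their part was not tested. Pck1 had 6360, 6134 and 7903 CPM in AD, against 5105, 4284 and 1997 CPM in Null (0.90 ± 0.37, edgeR adjusted p = 0.555), and Null-923 held the lowest value. G6pc had 917, 1388 and 1010 CPM in AD, against 840.3, 491 and 877 CPM in Null (0.64 ± 0.26). Neither gene overlapped between the groups, and the share of all genes without overlap was not counted. With the main settings edgeR called neither gene, while DESeq2 called Pck1. Pfkfb3 had 51.8, 35.2 and 20.3 CPM in AD and 14.9, 12.1 and 14.7 CPM in Null (1.41 ± 0.32, edgeR adjusted p = 0.224). It too was called under 4 of the alternatives. Pklr stood at 0.41 ± 0.12 and Pdk2 at 0.47 ± 0.13, each called only without the filter on low counts. In the other direction the lactate carrier Slc16a1 had 141, 156 and 144 CPM in AD, against 203.5, 263 and 226 CPM in Null (-0.60 ± 0.11, edgeR adjusted p = 0.0773), and it was called under 4 of the alternatives. Of 26 other pathway genes and 18 regulators tested in liver, 0 were called by edgeR, with 8 and 4 at an unadjusted p under 0.05. Among all 15755 genes, 1489 were at that p. Slc37a4, which carries glucose 6-phosphate to the phosphatase, stood at 0.67 ± 0.15.

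**Figure D5:**
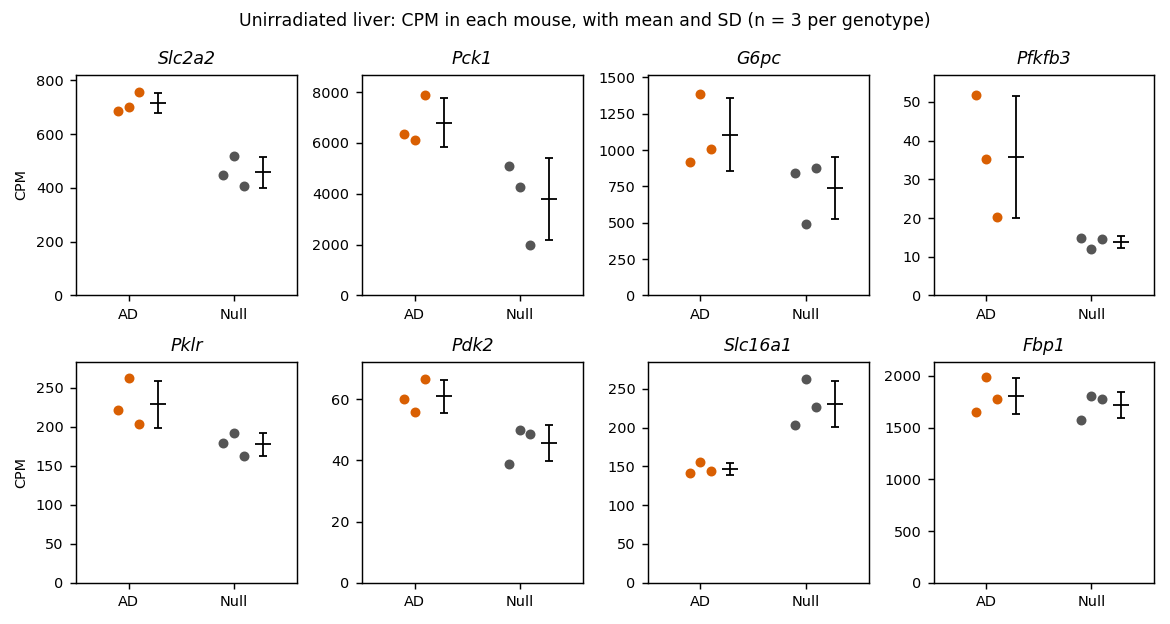
CPM of members in basal liver (y axes from 0), with a point per mouse and the mean and SD beside it, AD left of Null (3 mice each). The AD points lie above the Null points for Slc2a2, Pck1, G6pc, Pfkfb3, Pklr and Pdk2 and below them for Slc16a1, and Fbp1 overlaps. Of these, the edgeR test called Slc2a2. The members shown were chosen after their values were seen, and the share of all genes without overlap was not counted.

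Intestine and pancreas gave no call. In intestine 0 of 37 members were called by edgeR (0.015% of all genes called), with 5 at an unadjusted p under 0.05 (1219 of all 20011 genes) and 0 by DESeq2. Slc2a2 had 795, 741 and 669 CPM in AD, against 574, 539 and 373 CPM in Null, without overlap and without a call (0.57 ± 0.17, edgeR adjusted p = 0.715). The direction matched that in liver of the same mice, and the difference between tissues was not tested. Pdk2 stood at 0.40 ± 0.09 and Fbp1 at -0.46 ± 0.14. The lowest Slc2a2 values of each genotype were those of AD-702 and Null-923, the libraries with high acinar markers, whose part was not tested. In pancreas 0 of 34 members were called by edgeR (0.0548% of all genes called), with 7 at an unadjusted p under 0.05 (1181 of all 14604 genes) and 0 by DESeq2. Pfkfb1, Pck1 and G6pc were too low to test. Pck2 had 262, 258 and 225 CPM in AD, against 182, 167 and 203 CPM in Null (0.42 ± 0.14, edgeR adjusted p = 0.453), the groups again without overlap. In neither tissue was the share of all genes without overlap counted.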

How the data were processed

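Messenger RNA of 42 mouse tissue libraries was measured by sequencing. The deposited table holds the authors' raw counts per gene. STAR (2.6.0b), the build GRCm38 and the tool DESeq2 are named, per the submitters' processing notes; the counter, strand setting and annotation release are not given in the sources used here. Each column was tied to its sample through the animal, genotype and tissue in its name; 5 thymus columns of animals with several tissues were matched by elimination. GENCODE M21 gave names to 49326 of 49585 identifiers (259 unmatched).

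Counts were fitted in edgeR 4.0.16 (R 4.3.3, limma 3.58.1) with filterByExpr, TMM and robust quasi-likelihood F tests, calling at an adjusted p of 0.05, per setting: irradiated thymus (16 libraries, 22206 genes), basal thymus (8, 22173), all thymus (24, 23605), liver (6, 15755), intestine (6, 20011), pancreas (6, 14604) and basal tissues of AD and Null (23, 24431). Scripts were tested on simulated data. Alternatives were RLE scaling, no filter, DESeq2 1.42.0, an Xist covariate, the compared groups alone, a block for mouse and leaving out each library; the Ldha to Ldhb ratio was added after the data were seen. The members and lists were chosen with earlier results of these data known. Members were named where called with an absolute log2 change of at least 0.5 (2 between tissues), up to 8 a direction, with up to 4 called genes of the other lists; other members are given by role and, where singled out, were chosen after their values were seen.

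Same numbers across tissues mark the same animal, per the labels; over 33 such pairs of libraries the median correlation of deviations from group means was 0.062 (-0.131 to 0.301; 11446 genes). Chi-square per degree of freedom between replicates was at least 4.04, so no library repeated another of its group. In irradiated Het thymus it was 35.2 to 48.2 between Het-631 and the other mice, and 6.63 to 12 among those, so Het-631 stood apart. The depth per library, given with the results, limits genes of under 1 CPM. The labels give no sex, dose or batch, and do not say whether litters were shared. Reads shared with processed pseudogenes or paralogues (Eno1b reached 1709 counts) and with genes on the opposite strand (Tpi1, Gapdh, Hk3, Pfkm, Pfkp, Pfkfb1, Pfkfb2, Aldoa, Pdha1, Pklr and Pcx overlap coding genes) could shift levels of those members.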

Additional observations from a re-analysis of the deposited data

Results flagged for a closer look

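In irradiated thymus, 14 of 133 gene and group sets of 4 mice held a library far from the other 3, where chance flags about 1 in 20. The irradiated Null-604 library stood high in Pgk1 (52.97 CPM, others 32.55 to 32.93), Pfkm (30.08, others 22.44 to 23.03), Eno3 (17.75, others 14.16 to 14.67) and Slc16a1 (185.1, others 166.1 to 168.2). AD-727 stood high in Pcx (38.48 CPM, others 19.79 to 21.67) and Pdha1 (127.2, others 102.8 to 106.9), and AD-633 low in Pfkfb4 (7.006, others 8.697 to 8.883). Among RP mice, RP-653 stood high in Aldoa (193.7 CPM) and Aldoc (1.814) and low in Slc16a1 (146.3) and Pfkfb1 (2.15), RP-656 stood high in Pdk2 (7.474) and Pcx (28.1), and RP-649 in Gapdh (94.84).

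The response to irradiation differed between genotypes by edgeR's interaction test for 6 members in Het minus AD. The log2 differences were -0.85 for Tpi1, -0.76 for Slc16a1, -0.67 for Eno3, -0.37 for Gapdh, -0.28 for Pfkp and 0.32 for Pfkfb3. In Het minus Null they were -0.98 for Tpi1, -0.82 for Slc16a1, -0.62 for Ldha and -0.62 for Pdha1.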

How the results depend on the processing

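No member called in any of the 22 comparisons reversed its direction under any alternative. Of the counts of called members recomputed under alternatives, 447 stayed close to their main value (within 1.5 times) and 28 did not. The shares of all genes called under the alternatives are not given beside these counts, so shifts in them are not read as particular to the members. The 447 include comparisons with 0 calls under every setting. They also include the tissue comparisons, where 31 to 35 members were called, nearly the whole list, so that these counts could not rise 1.5 times. The ratios of Ldha to Ldhb were judged apart, against the replicate SD, and 0 moved beyond it when a library was left out. Without the filter on low counts, called members were 6 in irradiated AD against Het (10 with it), 2 in basal thymus Het against Null (0), 2 in basal thymus AD against Null (0), 5 in liver (1) and 1 in pancreas (0). In liver DESeq2 called 4 and the Xist covariate gave 3. Basal thymus AD against Null gave 2 with only the groups compared. When each library was left out in turn, counts ran from 6 to 14 in irradiated AD against Het, 0 to 2 in basal thymus Het against Null, 0 to 1 in basal thymus AD against Null, 0 to 1 in liver, 2 to 9 in the Het minus AD response and 2 to 7 in the Het minus Null response; the causes were not tested. The log2 ratio of Ldha to Ldhb ran from -1.18 to -0.95 in Het against Null and from -0.58 to -0.35 in AD against Null.

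With the replicate block for mouse in the tissue comparisons, 33 members were called in liver, 33 in intestine, 31 in pancreas and 33 in thymus, against 34, 35, 31 and 32 without the block, and it moved no count by over 1.5 times. Within a tissue the genotypes are different mice and no paired analysis was possible. Scaling by RLE shifted the median over all genes by no more than 0.045 on the log2 scale.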
